A study of Mus musculus with 5 samples.

Results

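Genes that slow or stop the cell cycle, or that answer to p53, were examined across sorted bone marrow stromal cells of the mouse. They were chosen by name, without use of their measured values, and are 8 of the 30099 gene symbols in the data: Cdkn2a, Cdkn2b, Cdkn1a, Cdkn1b, Trp53, Mdm2, Ccng1 and Gdf15. All 8 were listed in all 5 libraries. The question put to the data was which cells carry Cdkn2a, and how the other 7 genes lie in the same cells and libraries.

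The cells came from femur marrow of mice with the genotype Lepr-cre; R26R-tdTomato, in which Cre made under control of the leptin receptor gene switches on a red fluorescent protein. The label is permanent, so a tdTomato-positive cell has expressed Lepr at some time, or descends from a cell that did, and need not express it when sorted. The distal growth plates and proximal bone ends were removed, the rest was digested, and tdTomato-positive cells were sorted and captured on a BD Rhapsody instrument, so that cells of those bone ends were not sampled. Control mice were uninjured at 15 weeks of age. Naive mice were also 15 weeks old and had undergone ablation of the marrow at 13 weeks. Exhausted mice, again 15 weeks old, had been operated on at 9 and at 13 weeks. Aged mice were 18 months old and uninjured, and aged-injury mice were 18 months old and were taken 1 week after ablation. Naive and exhausted cells were thus taken 2 weeks after the last surgery and aged-injury cells 1 week after it.

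Each group was 1 library, and the number of animals behind it is not given in the labels. There is therefore no replicate and no test between groups. Every interval below is an exact 95% interval for counting error only, and group and library cannot be told apart. Expression is given as CPM, the counts of a gene per 1000000 unique molecular identifiers (UMIs, 1 per captured transcript molecule), summed over all cells of a population in a library. A gene was said to differ between a pair when its CPM differed at least 1.5-fold and reached 5 CPM on at least 1 side, and the share of all genes that did so is given for each comparison.

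After filtering, 47829 of 57968 cells were kept, from 5242 in naive to 19497 in aged-injury, with medians of 6671 UMIs per cell in aged to 9512 in aged-injury. Pairs of libraries shared at most 5 cell labels. Despite the sort, 7567 kept cells were blood cells and 1492 endothelial, and 38770 were stromal: 7142 of control and 6746 of aged, and after ablation 3709 of naive, 2886 of exhausted and 18287 of aged-injury. Doublets were not removed. Stromal classes were named from clusters that were built without the 8 genes or their pathway genes. The largest class was reticular-like (Cxcl12, Lepr and Adipoq-rich cells), and the class most relevant to Cdkn2a was activated-stroma-like, with Hmga2, Acta2, Tagln and Cd248 among its leading genes. Of the 713 activated-stroma-like cells, 635 came from aged-injury and 63 from naive, so this class may be a feature of 1 library rather than a cell type. Pericyte and smooth muscle genes are shared with it, since Acta2 and Tagln stand in both marker lists.

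Cyclin-dependent kinases drive the cell cycle, and 4 of the 8 genes encode proteins that block them. Cdkn2a encodes p16Ink4a, which binds Cdk4 and Cdk6, and, from another start and another reading frame, p19Arf, which binds Mdm2. Cdkn2b, its neighbour, encodes p15Ink4b. Cdkn1a encodes p21, a direct target of p53, and Cdkn1b encodes p27, which is controlled mainly through its protein. Trp53 encodes p53 itself, and Mdm2 encodes the ubiquitin ligase that destroys p53 and is in turn induced by it. Ccng1, cyclin G1, is another p53 target, and Gdf15 is a secreted factor induced by p53 and by the integrated stress response. Cdkn2a is widely used as a marker of senescent cells, which remain in the tissue without dividing.

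Both starts of Cdkn2a matter for reading the counts, because the UMIs were deposited per symbol and do not separate the transcripts. In GENCODE M21 on GRCm38 the gene lies on chromosome 4 from 89274471 to 89294653, minus strand, and Cdkn2b lies 11645 bases farther upstream at 89306299 to 89311039. The files use GRCm39, so these positions are background and were not joined to the counts. The 2 annotated Cdkn2a transcripts start 12461 bases apart, end 70 bases apart and share 575 exonic bases, so both give 3′ ends in nearly the same place. The 200 bases before each start are shown from RefSeq (GRCm38.p6, gene strand), with each CpG in capitals.

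Cdkn2a, farther start, chr4:89294654-89294853: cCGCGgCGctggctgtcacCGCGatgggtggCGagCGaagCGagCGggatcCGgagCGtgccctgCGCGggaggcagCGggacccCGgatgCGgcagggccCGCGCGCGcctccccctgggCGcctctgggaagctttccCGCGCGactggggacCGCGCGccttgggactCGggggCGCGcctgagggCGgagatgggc
Cdkn2a, nearer start, chr4:89282193-89282392: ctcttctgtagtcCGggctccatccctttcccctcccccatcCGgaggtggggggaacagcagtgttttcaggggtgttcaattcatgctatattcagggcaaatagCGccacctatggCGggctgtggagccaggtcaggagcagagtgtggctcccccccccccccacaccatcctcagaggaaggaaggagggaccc

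The stretch before the farther start held 31 CpG and that before the nearer start 4. Across 32851 RefSeq promoter windows the median was 5 CpG in the 200 bases before the start and the upper quartile 13. All 8 genes had at least 1 window, 11 in all. These windows, from 250 bases before to 50 after the start, were searched for the p53 response element, a 20-base palindrome made of 2 adjoining 10-base units, with at most 2 mismatches. Being palindromic, it was read for both strands at once. It was found in 2 of the 11 windows, 1 of Cdkn1a and the window of Ccng1, and in 0.326% of all windows. Both matches are shown in capitals with 20 bases on each side, since these are the members with a match in the windows searched.

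Cdkn1a, chr17:29090908-29090967, plus strand: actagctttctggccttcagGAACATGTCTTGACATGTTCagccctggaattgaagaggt
Ccng1, chr11:40755442-40755501, minus strand: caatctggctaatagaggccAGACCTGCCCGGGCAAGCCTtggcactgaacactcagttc

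Each match had 1 mismatch, and they began 51 bases before the more upstream Cdkn1a start and 195 before the Ccng1 start. The window of the other Cdkn1a start, chr17:29093519-29093818, held no match, with 7 mismatches at best. A match in these letters is a description, not evidence of binding, and elements of other members outside the windows were not searched.

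Cdkn2a was sparse in the stroma and differed widely between libraries. Without injury its summed level over all stromal cells was 1.26 CPM for control (0.996 to 1.56) and 0.605 for aged (0.408 to 0.864). After ablation it was 7.19 CPM for naive (6.30 to 8.17), 2.47 for exhausted (1.87 to 3.20) and 11.7 for aged-injury (11.3 to 12.2). Both libraries taken after 1 ablation were the highest, and uninjured aged cells were the lowest. No pair of these 5 intervals overlapped. The naive level was 5.72-fold that of control (4.42 to 7.47), and the exhausted level, after 2 ablations, was 0.344-fold that of naive (0.253 to 0.461). Aged-injury stood 19.4-fold above aged (13.5 to 28.8) and 1.63-fold above naive (1.42 to 1.87), a pair that also differs in age and in the time since surgery. Control, exhausted and aged were all under 5 CPM, so the exhausted to control ratio of 1.97 and the aged to control ratio of 0.481 fall below the level set for a comparison.

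The share of stromal cells with at least 1 Cdkn2a UMI followed the same order of libraries. It was 0.784% for control (0.593 to 1.02) and 0.415% for aged (0.276 to 0.599), against 3.40% for naive (2.84 to 4.03), 1.35% for exhausted (0.963 to 1.84) and 5.70% for aged-injury (5.37 to 6.04). Deeper cells show more genes, so every cell was also thinned to 3000 UMIs, which left 6587 cells of control, 5388 of aged, 3071 of naive, 2290 of exhausted and 15739 of aged-injury. The thinned Cdkn2a shares, in this order, were 0.349%, 0.204%, 1.30%, 0.611% and 1.58%. The order of the libraries was kept, while naive and aged-injury, with thinned intervals of 0.932 to 1.77% and 1.39 to 1.78%, no longer separated.

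Free RNA in single-cell data gives stray UMIs to cells that do not express a gene, so blood cells of the same libraries serve as the background for Cdkn2a. Over all libraries 44 of 7567 blood cells held a Cdkn2a UMI, 0.581% at a median depth of 8368 UMIs, or 0.127% after thinning, and the summed level was 0.614 CPM. In aged 0 of 672 thinned blood cells held one, which allows a share of up to 0.446% at the limit of 3 counts. B-lineage cells, 1582 in all, stood at 2.12 CPM of Cdkn2a, so the blood level need not be stray RNA alone. Reticular-like stromal cells, at a median of 8388 UMIs, lay close to this pooled blood level: 77 of 18894 held a Cdkn2a UMI, 0.408% or 0.160% after thinning, with 0.522 CPM. By library the reticular-like level of Cdkn2a was 0.351 CPM for control, 0.323 for aged, 1.10 for naive, 0.599 for exhausted and 0.676 for aged-injury, each on 7 to 42 UMIs. Pooled over libraries, Cdkn2a in these cells was not distinguishable from the pooled blood background at this depth. Of the blood cells 361 were from aged-injury, against 3195 from exhausted. Among reticular-like cells these numbers were 6459 and 1468, so the pools differ in their mix of libraries. The comparison therefore cannot show whether the UMIs of reticular-like cells were stray. Between libraries the reticular-like level was 3.15-fold in naive against control (1.29 to 7.28) and 2.10-fold in aged-injury against aged (1.08 to 4.37). All of these levels were under 5 CPM.

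Typed by cluster and at full depth, most stromal cells that carried Cdkn2a were of other kinds. In the activated-stroma-like class of aged-injury 368 of 635 cells, 58.0% (54.0 to 61.8), held a Cdkn2a UMI, and in that of naive 25 of 63 cells, 39.7% (27.6 to 52.8). The summed Cdkn2a levels were 53.1 CPM (49.95 to 56.38) in aged-injury and 72.6 CPM (54.8 to 94.3) in naive. These levels have overlapping intervals, and the order of the full-depth shares is the reverse of the order of the levels, so neither library is put above the other. Median depth was 30122 UMIs in aged-injury and 8161 in naive, and with cells thinned to 3000 UMIs the shares were 11.7% and 22.6%. Both remained far above the thinned blood share. Control, exhausted and aged held 2, 12 and 1 activated-stroma-like cells, too few for a level. The class depends on the clustering resolution. At resolution 0.5 there was no such class, and 712 of the 713 cells lay in a cluster of 1536 cells led by Plin1, Hmga2 and Acta2 and named adipocyte-like by its markers. Cdkn2a in that cluster was 43.7 CPM in aged-injury (41.4 to 46.1) and 38.3 CPM in naive (31.4 to 46.2).

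A preosteoblast-like cluster led by Spp1 and Dmp1, genes of mineralising matrix, came next, and it was present in every library. Without injury 12 of 134 control cells (8.96%) and 8 of 83 aged cells (9.64%) in it held a Cdkn2a UMI. After ablation these were 16 naive cells (15.7%), 3 of 52 exhausted cells (5.77%) and 205 of 806 aged-injury cells (25.4%). In the same order the summed Cdkn2a levels were 11.9 CPM (7.30 to 18.5), 12.2 (5.58 to 23.2), 25.5 (17.9 to 35.1), 6.96 (1.90 to 17.8) and 40.9 (37.7 to 44.3). In this cluster Cdkn2a was above the blood level in control and aged cells too. The aged-injury interval lay above those of the other 4 libraries, and the naive interval overlapped those of control and aged. Cdkn2a was far lower in the larger, Wif1-led preosteoblast-like cluster, at 3.02 CPM in control, 5.31 in naive and 3.47 in aged-injury.

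**Figure D1:**
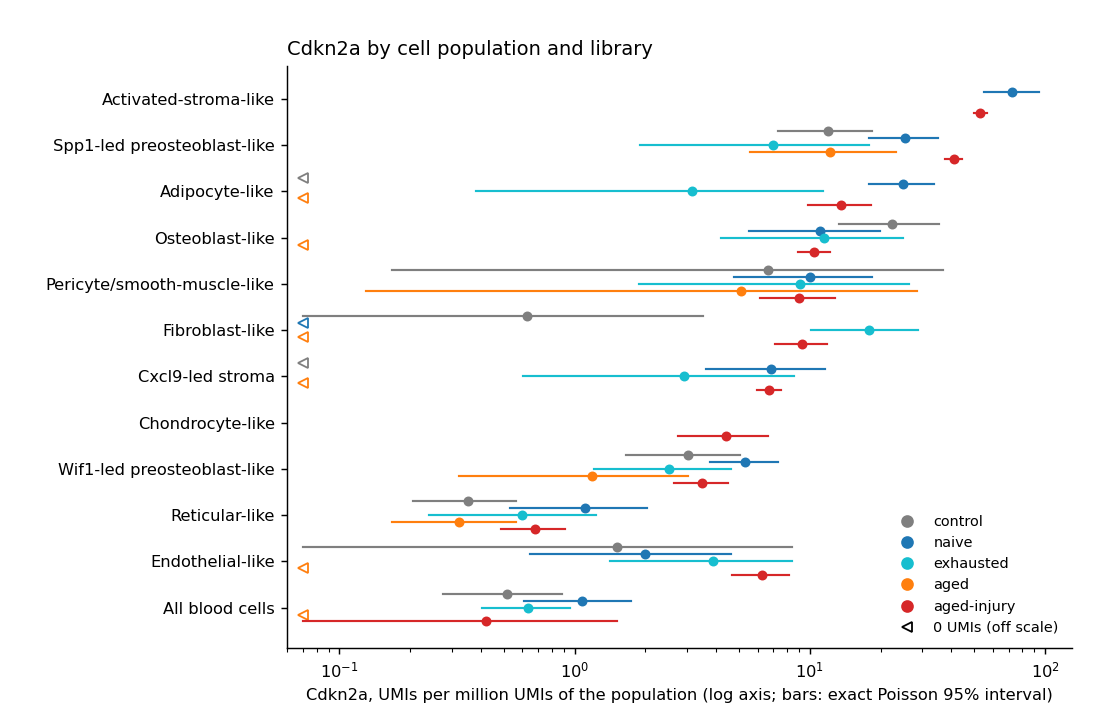
Cdkn2a level in CPM (log axis) for each stromal population and library with at least 20 cells, with exact 95% Poisson intervals and the blood cells of the same libraries as background; open triangles at the left edge stand for 0 UMIs. Reticular-like cells lie between 0.323 and 1.10 CPM in the 5 libraries, while activated-stroma-like cells of aged-injury and naive reach 53.1 and 72.6 CPM.

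Smaller classes held Cdkn2a at intermediate levels. Osteoblast-like cells, marked by Bglap, stood at 22.4 CPM for control (13.3 to 35.4), and at 11.1 for naive, 11.5 for exhausted and 10.5 for aged-injury (8.92 to 12.2), with 0 Cdkn2a UMIs in the 34 cells of aged. The control value rests on 7 of 62 cells, and 1 of those cells held 9 of the 18 UMIs. Adipocyte-like cells, marked by Plin1, stood at 24.8 CPM (17.9 to 33.6) in naive and 13.6 (9.85 to 18.2) in aged-injury, whereas 33 control and 31 aged cells had 0 Cdkn2a UMIs. Pericyte and smooth muscle-like cells ranged from 5.099 to 9.97 CPM across the 5 libraries with overlapping intervals. Fibroblast-like cells reached 17.8 CPM in exhausted, on 16 UMIs of which 9 lay in 1 cell, and 9.24 in aged-injury. A cluster led by Cxcl9 that could not be named, 3250 of whose 3646 cells were from aged-injury, had 6.70 CPM there and 0 UMIs in control and aged. Endothelial cells of aged-injury had 6.25 CPM of Cdkn2a, with 40 of 849 cells positive, so the gene was not limited to the stroma.

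Seen from the carriers, 1291 stromal cells held 2839 Cdkn2a UMIs. Of these cells 728 (56.4%) held a single UMI and 128 held 5 or more, up to 24, and those 128 accounted for 35.1% of the UMIs. In aged-injury 35.3% of the carriers were activated-stroma-like, a class that made up 3.47% of its stromal cells, and 19.7% lay in the Spp1-led preosteoblast-like cluster, 4.41% of the cells. A further 15.5% lay in the Cxcl9-led cluster and 8.06% were osteoblast-like, while 3.65% were reticular-like, against 35.3% of the stromal cells. In naive the carriers were spread more evenly over classes: 19.8% were activated-stroma-like, 15.1% adipocyte-like, 24 of 126 in the Wif1-led and 12.7% in the Spp1-led preosteoblast-like cluster. In control, with 56 carriers, 28.6% were reticular-like, against 72.8% of the cells, and each of these preosteoblast-like clusters held 21.4%.

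**Figure D2:**
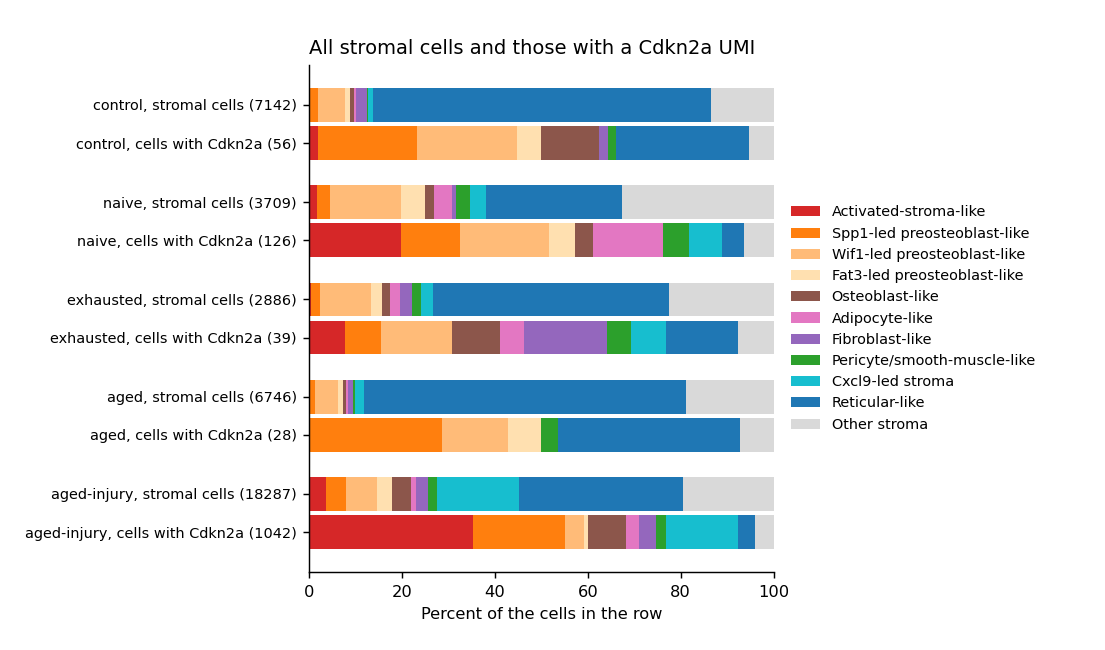
Stacked bars in pairs for each library, with all stromal cells above and cells with a Cdkn2a UMI below, coloured by population as a percent of the cells in the row (cell numbers in brackets). Activated-stroma-like cells are 3.47% of the stromal cells of aged-injury and 35.3% of its carriers, and reticular-like cells are 35.3% of the cells and 3.65% of the carriers.

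How far Cdkn2a is kept out of reticular cells depends on how those cells are defined. When each cell was typed on its own by the number of marker genes it held, rather than by its cluster, 33079 cells were called reticular, of which 18799 were reticular-like by cluster. Cdkn2a in these marker-gated reticular cells was 0.611 CPM for control and 0.378 for aged, and 4.36 for naive (3.59 to 5.25), 1.23 for exhausted and 8.0 for aged-injury (7.56 to 8.45). They held between 43.1% and 60.0% of the stromal Cdkn2a UMIs of their library. Over all libraries, however, they were 33079 of the 39237 stromal cells of the gate, so most gated stromal cells were reticular. In control 9 of the 37 UMIs in gated reticular cells came from 2 cells that clustered as osteoblast-like. In aged-injury 638 of the 1260 UMIs in gated reticular cells came from 393 cells that clustered as activated-stroma-like, 287 from the Cxcl9-led cluster, 172 from preosteoblast-like cells and 42 from reticular-like cells. The carriers also held transcripts of reticular genes. Of the 1042 Cdkn2a carriers of aged-injury, 80.2% had a UMI of Lepr, the leptin receptor, and 99.2% of Cxcl12, a chemokine that holds stem cells in the marrow, against 90.3% and 98.6% of its other stromal cells. Their summed Lepr level was 333 CPM against 1916 in the others, and their Cxcl12 level 6695 against 23333. Cells with Cdkn2a thus had lower levels of these genes than other cells of the library. Most of them held at least 1 UMI of each gene, but these shares are at full depth. Over all libraries stromal carriers had a median of 21880 UMIs, against 8120 in other stromal cells. Whether the carriers had been reticular cells was not tested.

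Markers of other cell types were measured beside Cdkn2a. All 7 blood markers used for typing were detected in activated-stroma-like cells of aged-injury, with a summed level of 23.9 CPM, against 33.0 CPM in reticular-like cells. In naive 6 of the 7 were detected, Tyrobp being at 0, with a summed level of 73.9 CPM. In the Spp1-led cluster of aged-injury the same 7 markers summed to 158 CPM. Of 12 macrophage markers 11 were detected in the activated-stroma-like cells, summing to 472 CPM with Adgre1 at 0, and all 11 endothelial markers, summing to 21 CPM. Vcam1 stands in both the macrophage and the reticular marker lists, so the macrophage sum is not specific to macrophages. The part of doublets in the Cdkn2a values was not tested.

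Cdkn2b, the neighbour of Cdkn2a, was rarer and lay only in part in the same populations. It gave 791 UMIs in 639 stromal cells, 82.6% of them with a single UMI. Over all stromal cells its level was 0.345 CPM for control and 0.383 for aged, and 1.98 for naive, 1.73 for exhausted and 3.10 for aged-injury, against 0.159 CPM in all blood cells. Every stromal total was under 5 CPM. In activated-stroma-like cells Cdkn2b stood at 10.8 CPM in aged-injury and 13.0 in naive, and in the Spp1-led cluster at 8.08 in aged-injury, 5.51 in naive and 2.39 in control. Fibroblast-like cells of aged-injury had 7.36 CPM. Osteoblast-like and pericyte and smooth muscle-like cells of aged-injury had 1.35 and 1.16 CPM of Cdkn2b, where Cdkn2a was 10.5 and 9.00. In naive these 2 classes had 5.04 CPM of Cdkn2b, on 5 UMIs, and 0 UMIs. Reticular-like cells had 0.380 CPM over all libraries.

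At full depth, Cdkn2a carriers held Cdkn2b more often than other cells in each aged-injury class compared, but the carriers were also deeper. Among activated-stroma-like cells of aged-injury, 108 of 368 Cdkn2a carriers (29.3%) and 42 of 267 others (15.7%) had a Cdkn2b UMI, at median depths of 36380 and 22172 UMIs. With cells thinned to 6000 UMIs, the shares were 9.09% (4.79 to 15.3) and 5.12% (3.31 to 7.52), with overlapping intervals. In the Spp1-led cluster of aged-injury they were 22.9% and 8.15% at full depth, and 5.38% and 3.55% when thinned, also overlapping. In the Cxcl9-led cluster of aged-injury the thinned shares were apart, with Cdkn2b in 5 of 74 carriers (6.76%, 2.23 to 15.1) and 28 of 2915 others (0.961%, 0.639 to 1.39). Osteoblast-like cells of aged-injury had Cdkn2b in 7 of 84 carriers (8.33%, 3.42 to 16.4) and 14 of 670 others (2.09%, 1.15 to 3.48) at full depth. Thinned, it was in 0 of 31 carriers (0 to 11.2%) and 7 of 669 others, too few carriers to compare. Among the activated-stroma-like cells of naive Cdkn2b was in 3 of 25 carriers and 6 of 38 others at full depth. In the Spp1-led cluster of naive it was in 4 of 16 carriers and 3 of 86 others.

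Carriers of Cdkn2a also held transcripts of division genes. Mki67 and Top2a, which mark cycling cells, were present in 51.4% and 56.5% of activated-stroma-like carriers of aged-injury and in 46.8% and 45.7% of the others at full depth. Thinned to 6000 UMIs, Mki67 was in 33 of 132 carriers (17.9 to 33.3%) and 173 of 469 others (36.9%, 32.5 to 41.4), and Top2a in 31.8% and 38.4%, so the order turned with depth in this class. In osteoblast-like cells of aged-injury it did not turn, with Mki67 in 5 of 31 thinned carriers (16.1%, 5.45 to 33.7) and 14 of 669 others (2.09%, 1.15 to 3.49). Carriers and others of each library and cluster were also compared by summed level, weighted to the makeup of the carriers, which had median depths of 21880 UMIs against 8120. In that comparison Mki67 was 1.07-fold and Top2a 1.15-fold in carriers over all stroma, and 0.890-fold and 1.04-fold within activated-stroma-like cells. Within the Spp1-led cluster the genes parted, with Mki67 at 1.94-fold and Top2a at 0.664-fold, on 68 and 61 UMIs in carriers.

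Over all stroma the p53 target Ccng1 was the member that differed most in the carriers apart from Cdkn2b. In that comparison 11808 genes could be compared, and 1.57% were at least 1.5-fold higher in carriers and 2.25% lower. Ccng1 was 1.81-fold (187 against 104 CPM) and Cdkn2b 1.95-fold. The other members were within 1.5-fold, with ratios of Mdm2 1.31, Gdf15 1.29, Cdkn1a 1.17, Trp53 1.10 and Cdkn1b 0.896. Within activated-stroma-like cells, where 2.01% of genes were higher and 3.07% lower, Ccng1 was 1.86-fold, Gdf15 1.90-fold, Mdm2 1.64-fold and Cdkn1a 1.60-fold, with Cdkn2b just inside the limit at 1.496. Within the Spp1-led cluster, where 2.7% were higher and 2.43% lower, Ccng1 was 2.07-fold and Cdkn2b 2.23-fold, Gdf15 was 0.460-fold and Cdkn1a 0.927-fold. Ccng1 passed 1.5-fold in carriers in all 3 comparisons. Gdf15 was farther from 1 than Ccng1 within both classes, but on opposite sides of it. Lepr was lower in the carriers, 0.599-fold over all stroma and 0.431-fold in activated-stroma-like cells.

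Among the pathway lists, p53 targets in cell death had the most members higher in carriers for their number. Of 11 that could be compared over all stroma 4 were at least 1.5-fold higher and 0 lower, with a median ratio of 1.35 beside 0.994 over all genes. It was also 4 of 11 in activated-stroma-like cells and 3 of 9 in the Spp1-led cluster. Of the p53 targets in arrest and repair, 1 of 18 was higher over all stroma with a median of 1.07, and of the genes that control p53, 0 of 13 were. Of the cell division genes 3 of 20 were higher, with a median of 1.26. Eda2r, a p53-induced receptor of the TNF receptor family, was among the 10 leading genes in the Spp1-led cluster at 4.77-fold. It stood at 12.6 against 2.65 CPM, on 70 UMIs in carriers, with a UMI in 32 of 244 carriers and 26 of 933 others.

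The genes with the largest ratios in carriers came from few cells. Prl2c2, a prolactin-family gene, led over all stroma at 307-fold, but 7 of 1291 carriers held it and 1 cell gave 55.8% of its UMIs. Gzmd, a granzyme, was 13.6-fold, present in 38 carriers and in 19 of 37479 other cells, and Gzme was 4.23-fold, present in 139 carriers and 527 others. Both granzymes also led in the Spp1-led cluster, where Gzmd was in 24 of 244 carriers and 4 of 933 others. In activated-stroma-like cells globin genes led, and 3 cells gave 90.5% of the Hba-a1 UMIs. Hspb7, a small heat shock protein, was in 34 of 397 activated-stroma-like carriers and 3 of 316 others, at 9.34-fold. Among the 77 reticular-like carriers, 51.3% of the UMIs of the leading gene, Rgs5, came from 1 cell.

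Across 19 pools of library and stromal class with at least 100 cells, the genes whose log2 level tracked Cdkn2a most closely were Jpt1 and Srsf1 (Pearson r = 0.915 each), Atic (0.901), Ipo7, Smarcc1, Gspt1, Prmt5, Utp18, Ttc13 and, with the lowest r of the 10, Ppp1r14b (0.887), out of 10954 genes. The pools share libraries and differ in depth, so r is a description. Of the members, Cdkn2b followed at 0.738 and Ccng1 at 0.670, then Mdm2 at 0.312 and Trp53 at 0.310, and Cdkn1b was at 0.00248, Gdf15 at -0.220 and Cdkn1a at -0.522. Cdkn1a, the other widely used arrest marker, had the lowest r of the members.

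In the Cdkn2a-rich populations of aged-injury the members did not move as a block relative to reticular-like cells. Activated-stroma-like cells of aged-injury had 78.5-fold more Cdkn2a (57.7 to 110) and 22.4-fold more Cdkn2b, and 3.91-fold more Ccng1, at 241 against 61.7 CPM. Trp53 was 1.85-fold, Mdm2 1.55-fold and Gdf15 1.54-fold higher, and Cdkn1a was 0.579-fold, at 202 against 349 CPM. Beside these 6 higher members and 1 lower, 30% of all genes were higher and 23.4% lower at the same limit. In naive, where 27.4% of genes were higher and 29.1% lower, Cdkn2a, Cdkn2b and Ccng1 were again higher (Ccng1 3.13-fold) and Cdkn1a lower (0.412-fold, at 169 CPM), while Trp53, Mdm2 and Gdf15 were within 1.5-fold.

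The Spp1-led preosteoblast-like cluster kept more Cdkn1a beside its Cdkn2a. In aged-injury, with 16.7% of genes higher and 18.3% lower than in reticular-like cells, Cdkn2a was 60.4-fold, Cdkn2b 16.7-fold and Ccng1 1.53-fold, Gdf15 was 0.313-fold and Cdkn1a was 1.10-fold. The other 3 members, Cdkn1b, Trp53 and Mdm2, were within 1.5-fold there. In naive (20.7% and 19.1%) Cdkn2a was 23.0-fold, Cdkn2b 9.96-fold on 8 and 5 UMIs, Gdf15 2.03-fold, Mdm2 1.56-fold and Cdkn1a 1.51-fold, with Trp53, Ccng1 and Cdkn1b within 1.5-fold. In control (23.2% and 17.7%) Cdkn2a was 34.0-fold, Cdkn1b 1.86-fold and Gdf15 0.410-fold, Cdkn2b was under 5 CPM and the other 4 members were within 1.5-fold. Gdf15 thus stood on different sides in naive and in the other 2 libraries. Adipocyte-like cells paired Cdkn2a with Ccng1 and low Cdkn1a: in naive (29.4% and 24.7%) Ccng1 was 3.91-fold at 178 CPM and Cdkn1a 0.365-fold, and in aged-injury (27.1% and 13.5%) 1.86-fold and 0.333-fold. Cdkn1b was lower in the naive adipocyte-like cells, at 0.468-fold, and Cdkn2b higher, at 9.63-fold on 9 and 5 UMIs, and Gdf15 was lower in those of aged-injury, at 0.437-fold.

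Between libraries, the members other than Cdkn2a were compared within reticular-like cells, where Cdkn2a and Cdkn2b were under 5 CPM in all 6 comparisons. The class has a different makeup by library: 67.6% of it in control and 58.8% in aged lay in a cluster led by Cntn1 and Ptn, while one led by Cbln1 and Grem1 held 43.3% of naive, 47.6% of exhausted and 46.3% of aged-injury cells of the class. A cluster led by Slco1a4 and Klhl29 held 11.4% to 21.9% of the class, and one led by Igfbp4 and Gas6 held from 1.94% in aged-injury to 30.1% in naive. Values within clusters are given beside the class values for some contrasts and not for all.

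Cdkn1a, encoding p21, was 368 CPM in reticular-like cells of control and 515 in those of aged, with 409 for naive, 224 for exhausted and 349 for aged-injury. Aged cells were the highest and exhausted cells the lowest. The exhausted level was 0.609-fold that of control (0.585 to 0.635) and 0.548-fold that of naive (0.521 to 0.577). The aged level was 1.397-fold that of control, and aged-injury was 0.678-fold aged (0.665 to 0.691), both inside the limit of 1.5-fold. Within the Cntn1-led cluster aged was 1.45-fold control but aged-injury was 0.893-fold aged. Within the Cbln1-led cluster naive was 1.85-fold control (457 against 248 CPM), exhausted was 0.488-fold naive and 0.8997-fold control, aged was 1.11-fold control and aged-injury 1.04-fold aged. Exhausted was below naive in all 4 clusters, at 0.658-fold in the Cntn1-led, 0.613-fold in the Slco1a4-led and 0.768-fold in the Igfbp4-led one. The difference between aged-injury and aged was not the same across clusters, with Cdkn1a at 0.541-fold in the Slco1a4-led (0.516 to 0.567) and 0.578-fold in the Igfbp4-led cluster, both past the limit. Naive against control also varied, at 0.606-fold in the Igfbp4-led cluster. Exhausted against control was inside the limit in the Cntn1-led cluster, at 0.818-fold. It was past the limit in the Slco1a4-led (0.644-fold) and the Igfbp4-led cluster (0.466-fold). In marker-gated reticular cells the log2 ratio of Cdkn1a was -0.93 in aged-injury against aged, past the limit, beside -0.56 by cluster, and -0.16 in naive against control, beside 0.15.

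Cdkn1b, encoding p27, was 80.5 CPM in reticular-like cells of control and 85.3 in those of aged, with 138 for naive, 111 for exhausted and 113 for aged-injury. All 3 libraries taken after ablation were above both uninjured ones. The naive level was 1.71-fold control (1.60 to 1.82), 1.60-fold within the Cntn1-led cluster 1.73-fold within the Cbln1-led and 1.83-fold within the Slco1a4-led one, but 1.02-fold (0.781 to 1.33) within the Igfbp4-led cluster. Exhausted stood at 1.38-fold control and aged-injury at 1.33-fold aged, under the limit. Outside the stroma, blood cells had more Cdkn1b, 264 CPM against 109 in all stroma, with 357 in erythroid-like and 325 in B-lineage cells.

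**Figure D3:**
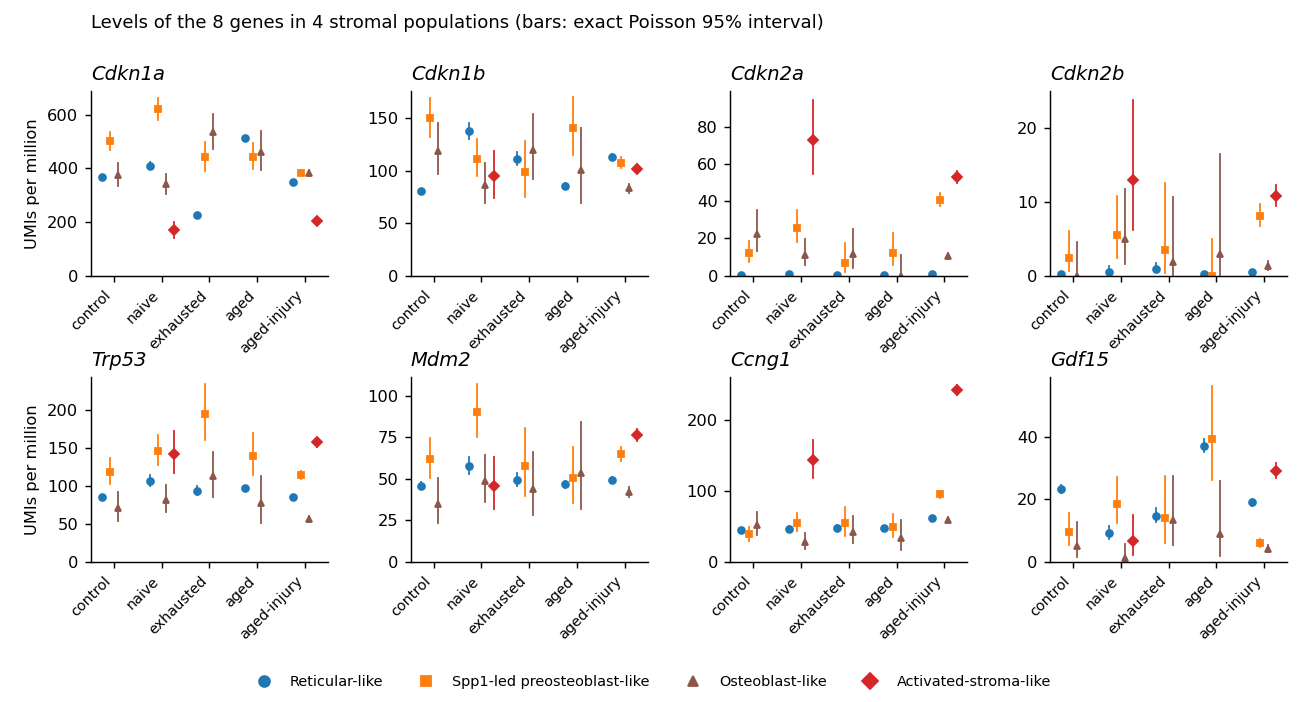
Level of each of the 8 genes by library in 4 stromal populations (markers by shape and colour), in CPM on a linear axis from 0, with exact 95% Poisson intervals, for populations with at least 20 cells. Among reticular-like cells Cdkn1a is highest in aged, at 515 CPM, and Cdkn2a reaches 53.1 CPM in activated-stroma-like cells of aged-injury.

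Trp53 and Mdm2 stayed within 1.5-fold in all 6 comparisons over the reticular-like class and over all stroma. In reticular-like cells Trp53 was 85.4 CPM for control and 96.6 for aged, and 107 for naive, 93.6 for exhausted and 84.9 for aged-injury. Mdm2 was 45.8, 46.5, 57.7, 49.3 and 49.0 CPM in that order. Both were highest in naive. Within the Igfbp4-led cluster Trp53 was 0.597-fold in aged-injury against aged (0.414 to 0.844), on 125 cells of aged-injury. Mdm2 there was 1.56-fold in exhausted and 1.59-fold in aged-injury against naive, with intervals that include 1. As background, p53 is controlled mainly through the stability of its protein, which these counts do not show.

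Ccng1 was 44.2 CPM in reticular-like cells of control, 45.5 in those of naive, 47.8 in those of exhausted and of aged, and 61.7 in those of aged-injury. The aged-injury value was the highest, at 1.29-fold aged (1.22 to 1.37) and 1.36-fold naive (1.224 to 1.504), under the limit. In marker-gated reticular cells the log2 ratio of Ccng1 in aged-injury against aged was 0.82, past the limit, beside 0.37 by cluster. Within clusters this ratio of Ccng1 ran from 1.14-fold in the Cbln1-led to 1.49-fold in the Slco1a4-led one. Over all stromal cells, where other classes enter, Ccng1 was 84.4 CPM in aged-injury, 1.88-fold aged and 1.74-fold naive.

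Gdf15 was the member that most often passed 1.5-fold between libraries. In reticular-like cells it was 23.3 CPM for control and 37.3 for aged, and 9.17 for naive, 14.8 for exhausted and 19.03 for aged-injury. Aged cells were the highest and each library taken after ablation was below the uninjured library of its age. Naive was 0.393-fold control (0.311 to 0.491), exhausted 0.634-fold control and 1.61-fold naive, aged 1.60-fold control (1.48 to 1.73), and aged-injury 0.511-fold aged (0.472 to 0.552) and 2.08-fold naive. Within the Cntn1-led cluster aged was 1.51-fold control and aged-injury 0.672-fold aged. Within the Cbln1-led cluster naive was 0.567-fold control, while exhausted was 1.03-fold naive, aged 0.976-fold control and aged-injury 0.831-fold aged, a different pattern from the class. Aged against control was 2.72-fold in the Slco1a4-led cluster (2.22 to 3.35) and 0.799-fold in the Igfbp4-led one (0.513 to 1.23), so the higher Gdf15 of aged was not present in every cluster. Aged-injury was below aged in all 4, from 0.276-fold in the Slco1a4-led to 0.831-fold in the Cbln1-led cluster. The intervals included 1 in the Cbln1-led (0.650 to 1.08) and the Igfbp4-led cluster (0.604-fold, 0.243 to 1.32). In marker-gated reticular cells the log2 ratio of exhausted to control was -0.21, inside the limit, beside -0.66 by cluster.

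Gdf15 was far higher in a blood class than in the stroma. Macrophage-like cells had 434 CPM in control, 672 after 1 ablation in naive and 759 after 2 in exhausted, where all stroma had 21.8, 9.45 and 15.1 CPM. Aged and aged-injury held 14 and 12 macrophage-like cells, too few for a level. Pericyte and smooth muscle-like cells had 86.0 CPM of Gdf15 in control, on 13 UMIs of which 10 lay in 1 cell, and 204 in aged, on 40 UMIs. In stromal cells 2710 carriers held 6880 Gdf15 UMIs, up to 38 in 1 cell.

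In all, few members passed 1.5-fold in reticular-like cells in any comparison. In naive against control they were Cdkn1b, higher, and Gdf15, lower, with 11.6% of 10238 genes past it in either direction. In exhausted against control the members were Cdkn1a and Gdf15, both lower (7.7% of genes), and in exhausted against naive Cdkn1a, lower, and Gdf15, higher (5.66%). Gdf15 was the 1 member in aged against control (4.46%), in aged-injury against aged (9.9%) and in aged-injury against naive (10.6%). These comparisons share control, naive and aged libraries. The member counts are 1 or 2 of the 6 that reached 5 CPM, too few genes for a share to be read.

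Over all stromal cells, where the makeup of classes also differs, the count was larger after ablation in aged mice. Cdkn2a and Ccng1 were higher and Cdkn1a (0.577-fold) and Gdf15 (0.433-fold) lower in aged-injury than in aged, beside 20.7% of genes. Against naive, aged-injury had higher Cdkn2a, Ccng1 and Gdf15 (14.9%). Naive against control showed higher Cdkn2a and lower Gdf15 (18.5%), exhausted against control lower Cdkn1a at 0.635-fold (9.09%), exhausted against naive lower Cdkn2a and higher Gdf15 (6.61%), and aged against control higher Gdf15 (4.38%). In whole-stroma values a change in the number of cells of a type and a change in RNA per cell cannot be told apart.

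**Figure D4:**
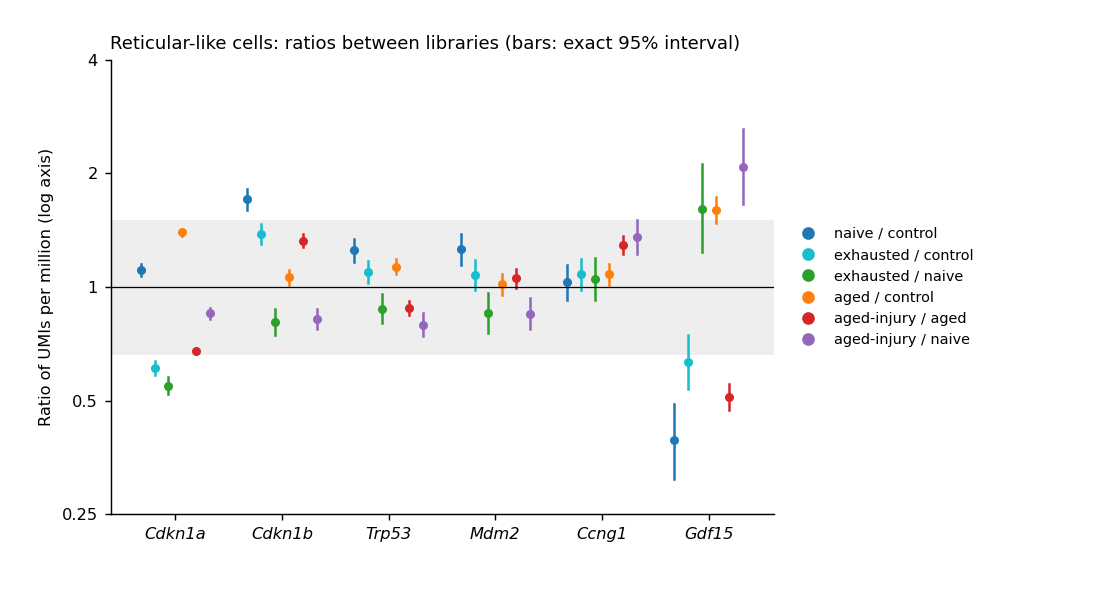
Ratio of each member between libraries in reticular-like cells, on a log axis, with exact 95% intervals and a grey band for ratios within 1.5-fold. Gdf15 lies below the band in naive against control, at 0.393, and Cdkn1a in exhausted against naive, at 0.548.

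Few genes of the wider p53 pathway passed 1.5-fold between libraries in reticular-like cells. Of 17 or 18 p53 targets in arrest and repair, 0 passed 1.5-fold in naive, exhausted or aged against control or in exhausted against naive, where 11.6%, 7.7%, 4.46% and 5.66% of all genes did. Their medians on the log2 scale were 0.02, -0.01, -0.01 and 0.12, beside 0.07, 0.04, -0.03 and -0.03 over all genes. In aged-injury against aged 3 of 17 were higher and 1 lower, with a median of 0.26 beside 0.08 and 9.9% of all genes past the limit. Trp53inp1, a p53-induced nuclear protein, was 2.11-fold (64.7 against 30.7 CPM), Sesn2, a stress-induced regulator of growth signalling, was 1.66-fold, and Rrm2b, a ribonucleotide reductase subunit, was 0.542-fold. Trp53inp1 was also 2.24-fold in aged-injury against naive. Of the 11 genes that control p53, 0 passed in any of the 6 comparisons. Of 7 p53 targets in cell death, 1 was higher in naive against control, beside 11.6% of all genes. In exhausted against naive 1 of 7 was higher and 1 lower (5.66%), and in aged-injury against naive 1 of 7 was lower (10.6%). In the remaining comparisons 0 of 6 or 7 passed.

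Other lists moved in a few members. Cdkn1c, the p57 inhibitor linked to quiescence, was 0.596-fold in naive and 0.564-fold in exhausted against control, from 167 CPM. Id1, a repressor of Cdkn2a, was 2.12-fold and 2.56-fold in the same comparisons, from 17 CPM. Of the secreted factors linked to senescence, 3 of 12 were higher and 3 lower in naive against control, beside 11.6% of all genes in either direction. In aged against control 3 of 11 were higher and 1 lower, beside 4.46%, the lower one being Igfbp3 at 0.495-fold. Mmp13, a collagenase, was 3.05-fold in naive against control and 3.95-fold in aged-injury against aged. Il6 was 1.94-fold in naive against control. The chemokines Cxcl1 and Ccl2 were 2.74-fold and 2.497-fold in aged against control, and Ccl2 was 0.453-fold in naive against control. Atf3, of the stress response that also induces Gdf15, was 0.465-fold in naive against control and 0.618-fold in aged-injury against aged. In each of these comparisons 1 of the 5 stress response genes compared was lower and 1 higher, with medians of 0.34 and 0.01 on the log2 scale, so the list had no single direction. Sesn2, counted in this list too, was the higher one in aged-injury against aged.

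Over all stromal cells the cell division list stood out after ablation. In aged-injury against aged 14 of 17 of its genes were higher and 0 lower, with a median of 2.98 on the log2 scale beside 0.09 over all genes and 20.7% of genes past the limit, among them Ccna2 at 18.7-fold, Top2a at 16.4-fold and Mki67 at 9.96-fold. Those 3 genes, and those of the rest of this paragraph, were picked after their values were seen. In naive against control 10 of 14 were higher (18.5% of all genes past the limit), and in aged-injury against naive 16 of 17 (14.9%). In exhausted against control 5 of 9 were higher (9.09%), and in exhausted against naive 6 of 14 were lower (6.61%). Cyclins and kinases of G1 had 6 of 10 higher in aged-injury against aged, with Ccnd1 at 8.51-fold. In the same comparison p53 targets in arrest and repair had 4 higher and 2 lower of 17, with Rps27l at 2.04-fold and Zmat3 at 1.78-fold. The p53 targets in cell death had 3 of 9 higher and 0 lower there, with a median of 0.44 on the log2 scale. In reticular-like cells 1 of 5 division genes was higher in aged-injury against aged (9.9% of all genes past the limit) and 1 of 6 in naive against control (11.6%). It was 2 of 7 in exhausted against control (7.7%). In exhausted against naive 2 of 8 were higher (5.66%), the opposite direction to all stroma. In aged-injury against naive 1 of 6 was lower (10.6%), and in aged against control 0 of 4 passed (4.46%).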

How the data were processed

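Single-cell RNA libraries of sorted tdTomato-positive femur marrow cells, 1 for each of 5 groups, were analysed. The authors deposited UMI counts per gene and cell as whole numbers, not normalised; per the submitters' processing notes Seurat 5.1 and GRCm39 were used, while the sources used here name neither an aligner nor a way of calling cells. Libraries were joined by gene symbol, with an unlisted symbol counted as 0. Cells with at least 500 genes, 1000 UMIs and under 25% mitochondrial UMIs were kept. Counts scaled to 10000 per cell and log-transformed were reduced to 30 principal components of 2000 variable genes and clustered together with Leiden (leidenalg 0.10.2, resolution 1.0, 15 neighbours, seed 0; 33 clusters). The 8 members, their pathway genes, mitochondrial genes and transgenes, 151 genes in all, were left out of clustering. A class name needed 3 markers, each in 10% of cells and 1.5-fold over the rest. No doublet caller was run.

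CPM were sums of UMIs with exact Poisson intervals, shares had exact Clopper-Pearson intervals and ratios exact conditional binomial intervals (scipy 1.17.1, 95%). UMIs count molecules, and the intervals cover counting error only. In the ratios of all genes, from which counts and medians come, a gene at 0 was set to the floor of 3 counts; no fold is printed for a member at 0. With 1 library per group no test was made. The ratio and thinning steps were tested on simulated data. All 8 members were eligible to be named in every comparison. From each pathway list up to 4 genes per comparison were eligible to be named, those with the largest ratio in reticular-like cells at 20 CPM or more. The 10 genes most like Cdkn2a and the 10 with the highest ratio in its carriers (50 UMIs or more) were also eligible. The members, lists and rules were chosen with earlier results of these data known. Alternatives covered depth, filters, cell typing, minimum level and TMM scaling (edgeR 4.0.16, used for scaling factors alone). Promoter sequences are from RefSeq on GRCm38.p6 and gene models from GENCODE M21.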

Additional observations from a re-analysis of the deposited data

Results flagged for a closer look

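In reticular-like cells Cdkn1a and Trp53 lay on opposite sides of 1 in the 2 contrasts of an ablated with an uninjured library. Cdkn1a was 1.11-fold in naive against control and 0.678-fold in aged-injury against aged. Trp53 was 1.25-fold and 0.879-fold in the same contrasts. Both pairs are values from single libraries, taken 2 weeks after ablation in naive and 1 week after it in aged-injury, and the difference between the contrasts was not tested. No ratio of these 4 passed 1.5-fold. In marker-gated reticular cells Cdkn1a was lower in both contrasts, at -0.16 and -0.93 on the log2 scale, and Trp53 was 0.27 and 0.01, so the opposite directions were not present there.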

How the results depend on the processing

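No paired analysis was possible because each group is 1 library, and for the same reason no library could be left out. No called value among those recomputed reversed. At clustering resolution 0.5 the activated-stroma-like class was not found, and 712 of its 713 cells lay in an adipocyte-like cluster with 42.4 CPM of Cdkn2a. The count of members past 1.5-fold in reticular-like cells depended most on cell typing and on the minimum level. In aged-injury against aged it was 1, and became 2 with mitochondrial UMIs under 10%, 2 without the 5% of cells with the most UMIs, 4 with marker-gated cells, 2 at clustering resolution 0.5, 3 with the Cxcl9-led cluster included (an alternative chosen after seeing the data) and 3 with no minimum level. In exhausted against control it was 2, and became 1 with the gate, at resolution 0.5 and with the Cxcl9-led cluster, and 4 with no minimum. In aged-injury against naive it was 1, and became 3 with the gate, 0 at a minimum of 20 CPM and 2 with none. In exhausted against naive it was 2, and became 1 at 20 CPM and 4 with no minimum, and in naive against control 2 became 4 with no minimum.

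Pathway list genes past 1.5-fold were 14 in naive against control, and became 30 with the gate, 8 at 20 CPM and 31 with no minimum. In exhausted against control 11 became 7 at 20 CPM and 27 with no minimum, and in exhausted against naive 10 became 5 and 27. In aged against control 5 became 13 with the gate and 21 with no minimum. In aged-injury against aged 10 became 35 with the gate, 16 with the Cxcl9-led cluster, 6 at 20 CPM and 32 with no minimum, and in aged-injury against naive 12 became 27 with the gate and 30 with no minimum.

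The thinned share of stromal cells with Cdkn2a follows the depth chosen: at 1500 and 6000 UMIs it was 0.143% and 0.565% in control, 0.616% and 2.67% in naive, 0.827% and 3.21% in aged-injury, and 0.0910% at 1500 in aged. Without the 5% of cells with the most UMIs it was 1.09% in aged-injury, and the full-depth share was 2.68% in naive and 3.63% in aged-injury. TMM scaling moved log2 ratios by at most 0.11 in reticular-like cells and 0.18 in all stroma, both in aged-injury against naive.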

Other observations

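Cdkn1a was also high outside the reticular-like cells. Endothelial cells had 828 CPM of Cdkn1a in control, 633 in aged and 366 in aged-injury, with 71, 87 and 849 cells, against 358, 471 and 272 CPM in all stroma of those libraries. Chondrocyte-like cells of aged-injury, 176 of the 181 found, had 692 CPM, with 223 of 3463 UMIs in 1 cell. All blood cells had 95.5 CPM. Pericyte and smooth muscle-like cells of aged reached 1173 CPM, on 30 cells, against 284.5 CPM on 22 cells in control.

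Trp53 was highest in B-lineage cells among blood classes of over 1000 cells, at 203 CPM, and lowest in neutrophil-like cells, at 33.3 CPM, which had 109 CPM of Mdm2. Activated-stroma-like cells had 157 CPM of Trp53 over all libraries, above the 89.4 CPM of reticular-like cells.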
